A study of Mus musculus with 4 samples.

Results

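The 10 genes described here encode proteins that the liver secretes into blood plasma: the fibrinogen chain genes Fga and Fgb, Serpinf2 and Vtn of clotting and its control, the complement gene C3, and the protease-inhibitor and carrier genes Ambp, Itih2, Serpina6, Ahsg and Spp2. They were taken by gene name from 6 tables, 1 for each pair of 4 RNA-seq libraries, and make up 10 of the 235 named genes those tables hold. The libraries were made from gonads of wildtype CD1 mouse embryos at stage E13.5, dissected free of the mesonephros, and the series examined testis formation after in utero exposure to acetaminophen and anti-inflammatory drugs. The groups were Control (treatment labelled none), ACE+ACE (acetaminophen), ASP+ACE (aspirin with acetaminophen) and IBU+ACE (ibuprofen with acetaminophen), with 1 library in each. The labels do not state dose, days of exposure or the number of embryos in a library, and the tables name the control library EtOH.

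Because each group had 1 library, no difference below has a replicate check, and each describes these libraries and not the treatments. The levels printed are those the authors deposited and are taken to be FPKM, a count of fragments corrected for the length of the transcript and the size of the library. The depth behind them is unknown, so no interval or detection floor is given. The tables hold transcripts that the authors called between 2 libraries and no others. A gene is called "listed" where a table holds it. A gene missing from a table had no call there, which does not mean that its levels were equal. The genes were chosen from these same tables because they were listed, so their values are descriptions, with no test.

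As background, hepatocytes make most plasma proteins. Fibrinogen, built from alpha, beta and gamma chains, is cut by thrombin into fibrin, the mesh of a clot, and plasmin dissolves that mesh. Complement is a cascade of plasma proteases that tags and lyses microbes, and serpins and related inhibitors hold such proteases in check. In the fetus hepatocytes already make many of these proteins while the liver is also the main site of red cell formation, and the yolk sac endoderm makes several of them too. The testis is not a main source of most of them.

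The genes lie on 8 chromosomes of GRCm38, and 6 of their 10 deposited loci equal the gene of the GENCODE M21 annotation base for base. Fga (chromosome 3, 83026076 to 83033627, plus strand) and Fgb (chromosome 3, 83040141 to 83049863, minus strand) are neighbours that face each other 6513 bases apart. Serpinf2 (75431732 to 75439608, minus strand) and Vtn (78499091 to 78502324, plus strand) share chromosome 11. The others are Ahsg (chromosome 16, 22886611 to 22899438, plus strand), Ambp (chromosome 4, 63143275 to 63154799, minus strand), Itih2 (chromosome 2, 10093519 to 10131396, minus strand), Serpina6 (chromosome 12, 103646630 to 103657212, minus strand), C3 (chromosome 17, 57203970 to 57228136, minus strand) and Spp2 (chromosome 1, 88406949 to 88426438, plus strand). Their longest annotated transcripts run from 928 nt with 8 exons (Spp2) to 5136 nt with 41 exons (C3). The Ahsg locus also covers the antisense gene Gm30505 and the C3 locus the microRNA gene Mir6978. Strand handling in the authors' counting is not stated in the labels or headers, so both values may include the other gene.

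Promoter sequence is shown as background because hepatic promoters are known to bind the C/EBP factors. Whether any match bears on the levels in these libraries was not tested. RefSeq promoter windows (GRCm38.p6, 250 bases before to 50 after the gene's start) were found for 9 of the 10 genes, all but Serpina6. Each was searched on both strands for the HNF4 core CAAAGTCCA, the C/EBP element TTGCNNAA and the HNF3 element TGTTTAC. On the opposite strand the C/EBP element reads TTNNGCAA. The 250 bases before the start are printed 5′ to 3′ on the gene's own strand for 4 genes, the fibrinogen pair and 2 genes with a C/EBP match close to the start. Capitals mark matches. The windows are chr3:83025903-83026152 (plus strand), chr3:83049864-83050113 (minus strand), chr17:57228137-57228386 (minus strand) and chr16:22891765-22892014 (plus strand).
Fga: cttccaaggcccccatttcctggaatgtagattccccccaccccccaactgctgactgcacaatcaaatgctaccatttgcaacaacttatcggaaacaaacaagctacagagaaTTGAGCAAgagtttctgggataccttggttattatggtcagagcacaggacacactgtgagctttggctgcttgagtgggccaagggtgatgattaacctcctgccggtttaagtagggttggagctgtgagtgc
Fgb: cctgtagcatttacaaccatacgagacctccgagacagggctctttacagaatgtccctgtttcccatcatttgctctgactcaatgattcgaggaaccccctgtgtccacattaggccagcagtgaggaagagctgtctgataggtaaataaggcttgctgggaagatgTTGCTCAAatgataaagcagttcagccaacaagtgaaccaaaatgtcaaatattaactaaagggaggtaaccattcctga
C3: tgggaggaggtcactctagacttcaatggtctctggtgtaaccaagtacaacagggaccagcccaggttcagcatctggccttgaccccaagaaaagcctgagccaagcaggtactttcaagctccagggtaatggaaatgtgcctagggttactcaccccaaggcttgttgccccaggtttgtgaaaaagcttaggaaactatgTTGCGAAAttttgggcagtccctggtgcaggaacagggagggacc
Ahsg: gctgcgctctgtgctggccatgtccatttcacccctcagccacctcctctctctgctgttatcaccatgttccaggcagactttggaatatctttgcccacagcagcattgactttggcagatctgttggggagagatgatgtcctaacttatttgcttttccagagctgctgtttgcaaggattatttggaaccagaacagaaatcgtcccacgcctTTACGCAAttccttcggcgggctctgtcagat
The C/EBP element stood in 5 of 9 windows, those of Fga, Fgb, Ahsg, Itih2 and C3, against 10.8% of all 32851 promoter windows in the table. In Fga it began 135 bases before the start and in Fgb 80. The C3 match began 45 bases before the start, and those of Itih2 and Ahsg 33 and 32 bases before it. The HNF4 core and the HNF3 element were in 0 of the 9 windows, and in 0.475% and 3.65% of all windows. A match is a run of letters and does not show that a factor binds there. These RefSeq starts need not be those used in the libraries. The starts of Ahsg, Itih2, Ambp, Fga, Serpinf2, Spp2 and Vtn lie inside the longer GENCODE genes. For Ahsg, Itih2 and Ambp the whole 250 bases lie inside the gene, so the Ahsg and Itih2 matches do too.

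All 10 genes were listed as lower in ACE+ACE than in Control. Of the 382 transcripts listed in any of the 6 tables, 13.1% were listed as lower in this pair; how many transcripts the authors tested is not known. The choice of genes used this pair, so the count is a description. Summed over the 10 genes, the level was 12.8 FPKM in ACE+ACE against 43.7 FPKM in Control. The median of their log2 differences was -1.80, with a range of -2.12 to -1.31. The 127 named transcripts with both values had a median of -0.32. All 10 genes were called in this pair, so no small difference could enter their median, whereas the 127 need not have been called here. The authors' deposited tables give every row the same p of 5e-05 and q of 0.0310, which cannot rank the genes. In bulk samples, fewer cells of a type and less RNA per cell cannot be told apart.

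**Figure D1:**
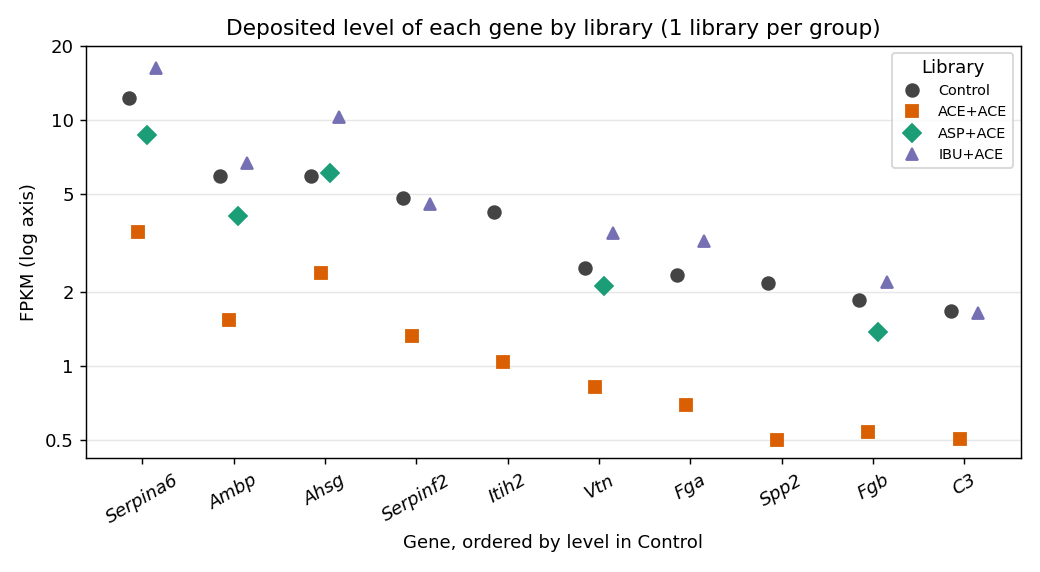
Deposited FPKM (log axis) of the 10 genes, ordered by their level in Control, with 1 point per library and no point where no table holds the value. The ACE+ACE point is the lowest for every gene, from 0.50 FPKM for Spp2 to 3.49 FPKM for Serpina6.

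Fibrinogen genes come first among the clotting group. Fga, the alpha chain gene, was at 0.691 FPKM in ACE+ACE, 2.35 in Control and 3.23 in IBU+ACE, with no value for ASP+ACE. Fgb, the beta chain gene, was at 0.536 FPKM in ACE+ACE, 1.37 in ASP+ACE, 1.85 in Control and 2.195 in IBU+ACE. For both genes IBU+ACE was the highest library and ACE+ACE the lowest. The drop from Control to ACE+ACE was nearly the same for the pair, with log2 differences of -1.77 for Fga and -1.78 for Fgb in the authors' deposited table. Accordingly, the ratio of Fga to Fgb FPKM was 1.27 in Control and 1.29 in ACE+ACE, and it was 1.47 in IBU+ACE. The gamma chain gene Fgg was in no table.

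Serpinf2 encodes alpha-2-antiplasmin, the main inhibitor of plasmin. Its level was 1.32 FPKM in ACE+ACE, 4.55 in IBU+ACE and 4.81 in Control, so that Control and IBU+ACE lay close together and ACE+ACE stood apart. Vtn encodes vitronectin, an adhesion protein of plasma and matrix that stabilises the inhibitor of plasminogen activation and also restrains the end of the complement cascade. Its level was 0.817 FPKM in ACE+ACE, 2.11 in ASP+ACE, 2.49 in Control and 3.46 in IBU+ACE. The ASP+ACE level of Vtn was 84.7% of Control, against 32.8% for ACE+ACE. Of the 25 genes of a coagulation list, these 4 (Fga, Fgb, Serpinf2 and Vtn) were in any table. The other 21, among them the genes of prothrombin, plasminogen and antithrombin, had no call in any pair. Cpb2, the gene of a carboxypeptidase that slows fibrin breakdown, lies outside the list and was picked after its values were seen; it had 0.232 FPKM in ACE+ACE and 0.994 in IBU+ACE and was listed in that pair alone.

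C3, the central component of complement, was at 0.505 FPKM in ACE+ACE, 1.64 in IBU+ACE and 1.67 in Control. Like Serpinf2, it had nearly equal levels in Control and IBU+ACE, with a log2 difference of -0.03. C3 was the 1 listed gene of 27 on a complement list. The macrophage genes C1qa, C1qb and C1qc of that list were in no table. C1rb, a complement protease gene, lies outside the list and was picked after its values were seen; it had 0.890 FPKM in ACE+ACE and 0.304 in ASP+ACE, and was listed as lower in ASP+ACE with a log2 difference of -1.55 in the authors' deposited table. C3 has no ASP+ACE value to set beside it, and reads of C1rb may be shared with its close copy C1ra.

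Among protease inhibitors, Ambp and Itih2 make partner proteins. Ambp encodes a precursor that is cut into alpha-1-microglobulin and bikunin, and bikunin is joined to heavy chains, of which Itih2 encodes one, to form inter-alpha-inhibitor, a complex that stabilises hyaluronan. Ambp was at 1.53 FPKM in ACE+ACE, 4.06 in ASP+ACE, 5.91 in Control and 6.70 in IBU+ACE. Itih2 had 4.22 FPKM in Control and 1.03 in ACE+ACE, with no value in the other libraries. The ratio of Ambp to Itih2 FPKM was 1.40 in Control and 1.49 in ACE+ACE. Both fell further than the median of the 10, with log2 differences of -1.95 and -2.03 in the authors' deposited table.

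Serpina6 encodes corticosteroid-binding globulin, a serpin that carries glucocorticoids in plasma and does not inhibit proteases. It had the highest FPKM of the genes with a value in each library, with 3.49 FPKM in ACE+ACE, 8.69 in ASP+ACE, 12.3 in Control and 16.3 in IBU+ACE. It was also the gene listed in most tables, 4 of 6. Ahsg encodes fetuin-A, an abundant fetal plasma glycoprotein that keeps calcium phosphate in solution and belongs to the cystatin superfamily. Its level was 2.38 FPKM in ACE+ACE, 5.90 in Control, 6.10 in ASP+ACE and 10.3 in IBU+ACE. Ahsg fell least of the 10 in ACE+ACE, to 40.2% of Control, and its ASP+ACE level was not below Control.

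Spp2, a secreted phosphoprotein gene of liver and bone with a cystatin-like domain, fell most, from 2.18 FPKM in Control to 0.50 in ACE+ACE, or 22.9% of Control. Its other levels are not in the tables. The ratio of Ahsg to Spp2 FPKM was therefore 2.71 in Control and 4.75 in ACE+ACE, the widest shift between these libraries among the 5 pairs of genes compared. Of the 31 genes of a protease-inhibitor list, 7 were listed as lower in ACE+ACE than in Control and 0 as higher. Of the 382 transcripts, 13.1% were listed as lower in this pair. The listed gene outside the 10 was A2m (alpha-2-macroglobulin, a broad protease trap), with 1.34 FPKM in Control and 0.596 in ACE+ACE. The other listed members were Ambp, Itih2, Serpina6, Serpinf2, Ahsg and Spp2. These are among the 10 genes, which were chosen because they were listed, so the count and its direction are a description.

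Neither ASP+ACE nor IBU+ACE had any of the 10 genes listed against Control, where 11.5% and 48.4% of the 382 transcripts were listed. Values in both Control and ASP+ACE are known for 5 of the genes. Ambp, Serpina6, Fgb and Vtn were lower in ASP+ACE, with log2 differences of -0.54, -0.50, -0.43 and -0.24, and Ahsg was 0.05 higher. The median of the 5 was -0.43, against -0.19 for the 104 named transcripts with both values. For IBU+ACE, 8 genes have both values, of which 6 were higher and 2 lower than in Control. The highest difference was that of Ahsg, 0.80, followed by Vtn with 0.48 and Fga with 0.46, and the lowest was that of Serpinf2, -0.08. Their median was 0.33, against 1.06 for the 146 named transcripts with both values. None of these genes' differences was called by the authors, whereas the 104 and 146 transcripts include some called in these pairs. The ASP+ACE and IBU+ACE values of these genes come through calls as higher than in ACE+ACE. Genes without such a call, Itih2 and Spp2 among them, have no value and do not enter these counts and medians, which are therefore descriptions.

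Between exposed libraries, 5 of the 10 genes were listed as higher in ASP+ACE than in ACE+ACE, where 3.66% of the 382 transcripts were. Their log2 differences lay in a narrow range in the authors' deposited table, from 1.31 for Serpina6 through 1.36 for both Fgb and Ahsg and 1.37 for Vtn to 1.41 for Ambp. In FPKM these 5 genes were between 2.49 and 2.65 times as high in ASP+ACE. The 114 named transcripts with both values had a median of -0.00143. These need not have been called in this pair, whereas the 5 genes were, so no small difference could appear among the 5. The 5 genes without a call in this pair (Fga, Itih2, Serpinf2, C3 and Spp2) have no ASP+ACE value in any table, so their absence does not show a different behaviour.

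Between ACE+ACE and IBU+ACE, 8 of the 10 genes were listed as higher in IBU+ACE, in a table that holds 54.2% of the 382 transcripts in that direction. The median log2 difference was 2.099, against 1.62 for the 166 named transcripts with both values. All 8 genes were called in this pair, so no small difference could enter their median, whereas the 166 need not have been called here. Fga (2.22), Serpina6 (2.22), Ambp (2.13), Ahsg (2.11), Vtn (2.08) and Fgb (2.03) lay close together, and Serpinf2 (1.79) and C3 (1.70) were lower. Itih2 and Spp2 were not listed in this pair. Between ASP+ACE and IBU+ACE, where 41.9% of the 382 transcripts were listed as higher in IBU+ACE, 1 of the 10 genes was: Serpina6, with a log2 difference of 0.90. Ahsg, Ambp, Vtn and Fgb had both values and no call, with log2 differences of 0.75, 0.72, 0.72 and 0.68. The comparisons share libraries: the ACE+ACE values enter 3 of them, so the differences from ACE+ACE are not independent of each other.

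**Figure D2:**
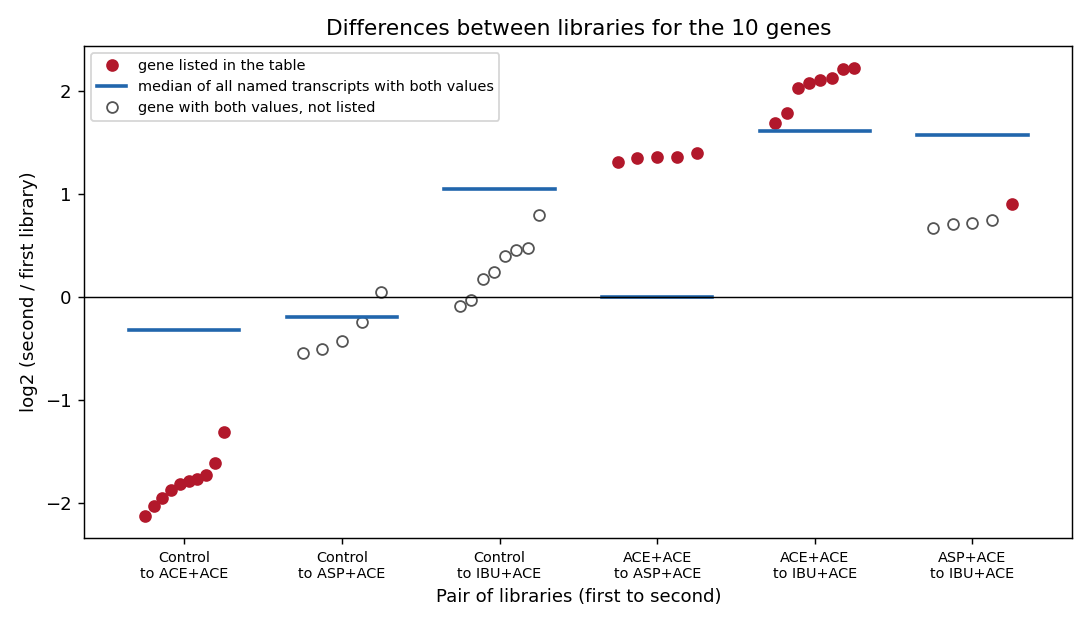
Each point is the log2 ratio of FPKM, second over first library, of 1 gene in a pair of libraries; filled points are listed by the authors and open points have both values without a call. Blue bars give the median of all named transcripts with both values, and the 3 pairs with ACE+ACE hold no open points, because every known value of these genes comes from a call against ACE+ACE, so no small difference could appear there.

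Over the 5 genes with values in all 4 libraries (Fgb, Ahsg, Ambp, Serpina6 and Vtn), the summed level was 8.75 FPKM in ACE+ACE, 22.3 in ASP+ACE, 28.5 in Control and 38.9 in IBU+ACE. Fgb, Ambp, Serpina6 and Vtn had the same order of libraries, IBU+ACE above Control above ASP+ACE above ACE+ACE. That each of the 5 differs from ACE+ACE was fixed by how the values became known, since they come through calls against ACE+ACE. A call does not fix the direction, but the genes were chosen with these results known. That ACE+ACE is lowest is therefore a description. Ahsg differed in having ASP+ACE just above Control. The steps between IBU+ACE, Control and ASP+ACE were called only for Serpina6, between ASP+ACE and IBU+ACE, and without replicates the order of these 3 libraries has no measure of error.

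The pattern was compared with that of Alb, the gene of albumin and the main plasma protein. Alb was at 16.1 FPKM in ACE+ACE, 46.4 in ASP+ACE, 52.6 in Control and 77.3 in IBU+ACE. Levels of Vtn as a share of Alb stayed between 4.48% and 5.07% over 4 libraries, although its FPKM differed 4.24-fold between the highest and the lowest. Fga, at 4.47% of Alb in Control, 4.29% in ACE+ACE and 4.18% in IBU+ACE, had the narrowest range, 1.07-fold, with 3 libraries. The shares of Serpina6 lay between 18.7% and 23.4%, those of Fgb between 2.84% and 3.51%, and those of Ambp between 8.66% and 11.2%.

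Ahsg went from 11.2% of Alb in Control to 14.7% in ACE+ACE, since it fell less than Alb. Serpinf2 and C3 had the widest shares, 1.56-fold and 1.497-fold, and both were lowest in IBU+ACE. Serpinf2 was 9.15% of Alb in Control, 8.17% in ACE+ACE and 5.88% in IBU+ACE. C3 was 3.17%, 3.14% and 2.12%. Itih2 went from 8.02% of Alb in Control to 6.41% in ACE+ACE, and Spp2 from 4.15% to 3.11%. Both have values in these libraries alone, so their spread cannot be set beside that of genes with more libraries. Divided by Alb, the median log2 difference between Control and ACE+ACE over the 10 genes was -0.09 in place of -1.80, and Ahsg and Vtn changed sign, to 0.39 and 0.10. The same division turned the medians of 4 other pairs from higher to lower: Control to IBU+ACE from 0.33 to -0.23, ACE+ACE to ASP+ACE from 1.36 to -0.17, ACE+ACE to IBU+ACE from 2.099 to -0.16, and ASP+ACE to IBU+ACE from 0.72 to -0.014. With 1 FPKM added to every value the median between Control and ACE+ACE was -1.06.

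**Figure D3:**
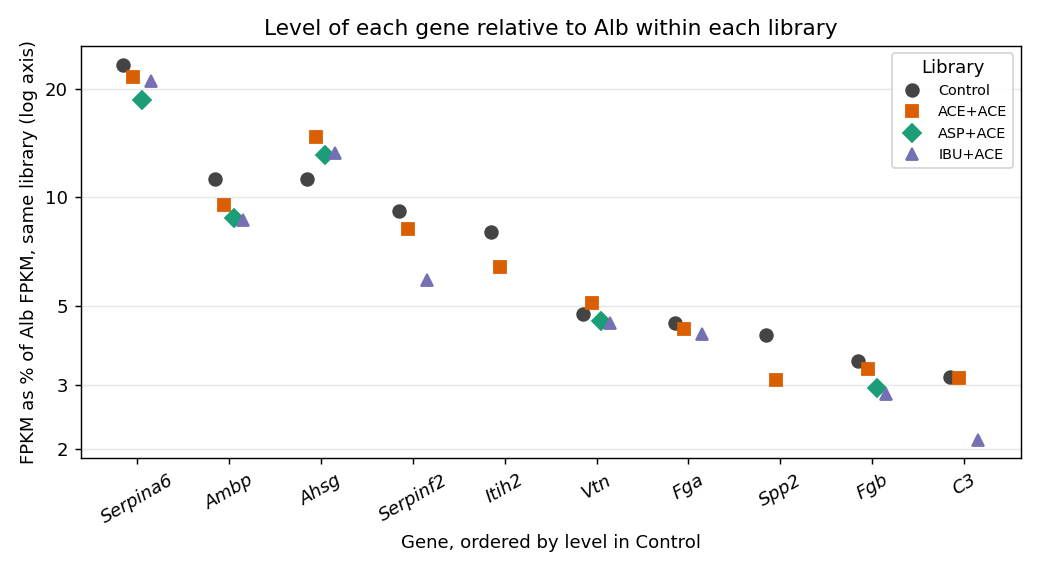
FPKM of each gene as a percent of Alb FPKM in the same library (log axis), with genes in the order of their level in Control. Most genes keep their points close together, whereas the IBU+ACE points of Serpinf2 (5.88%) and C3 (2.12%) lie below their Control points (9.15% and 3.17%). Itih2 and Spp2 have points for Control and ACE+ACE alone.

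The genes whose patterns were most like the 5 with complete values were found among 91 named transcripts with values above 0 in all 4 libraries. The 91 include the 5 themselves. Likeness was the root mean square difference, in log2 units after centring each gene over the 4 libraries, from the median profile of the 5. The nearest were Alb (0.10), Gc (vitamin D binding protein, 0.18), Apoa1 (the main apolipoprotein of high-density lipoprotein, 0.23), Afp (alpha-fetoprotein, 0.24) and Myh3 (embryonic myosin heavy chain, 0.37). Ahsg, one of the 5, itself differed from their median by 0.20, more than Alb or Gc did. Myh3, a muscle gene, was at 1.85 FPKM in ACE+ACE, 2.41 in ASP+ACE, 4.46 in Control and 4.54 in IBU+ACE. All values come from the same 4 libraries, so likeness over 4 points is a description.

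**Figure D4:**
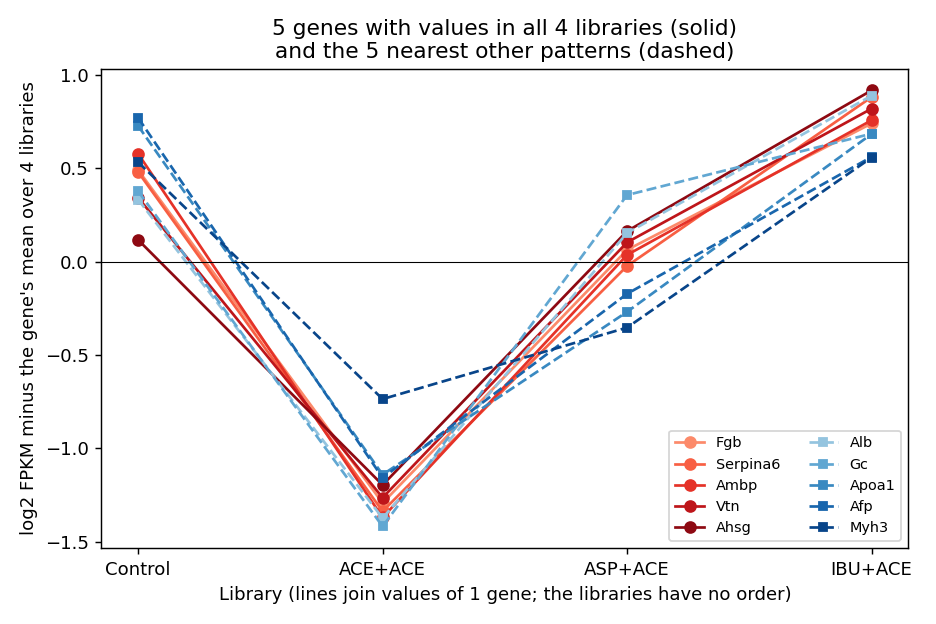
log2 FPKM of each gene after subtracting its mean over the 4 libraries; solid lines are the 5 genes with values in all libraries and dashed lines the 5 nearest other genes. The solid lines lie between -1.37 and -1.20 in ACE+ACE and between 0.74 and 0.92 in IBU+ACE, and Myh3, at -0.74 in ACE+ACE, is the shallowest dashed line.

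Markers of cell types whose RNA the samples could hold are given beside these genes. The lists were chosen with earlier results of these data known, so their counts are descriptions. Of the 382 transcripts, 13.1% were listed as lower in ACE+ACE than in Control. Against Control, 11.5% were listed in either direction in ASP+ACE and 48.4% in IBU+ACE. Of 13 hepatocyte markers, 6 were listed as lower in ACE+ACE than in Control and 0 as higher, and 2 (Afp and Apoa1) were listed as lower in ASP+ACE. The 4 with values in every library (Alb, Afp, Gc and Apoa1) summed to 55.7 FPKM in ACE+ACE, 125 in ASP+ACE, 202 in Control and 209 in IBU+ACE. Afp made up most of each sum. From Control to IBU+ACE, Afp went from 130 to 113 FPKM and Apoa1 from 18.3 to 17.8. Alb went the other way, from 52.6 to 77.3 FPKM, as did Gc, from 1.26 to 1.57. The hepatocyte transcription factor genes Hnf4a and Foxa2 were in no table. Of 7 yolk sac endoderm markers, 3 were listed as lower in ACE+ACE, Afp, Apoa1 and Apob, and the first pair of these in ASP+ACE as well, all also on the hepatocyte list; Amn, Cubn and Rhox5 were in no table. Of 5 red cell markers, 2 were listed as lower than in Control in ACE+ACE (Slc4a1 and Hbb-bt), 3 in ASP+ACE (Slc4a1, Hbb-bt and Hbb-y) and 3 in IBU+ACE (Hbb-y, Hbb-bh1 and Hba-x). The 2 with values in every library (Slc4a1 and Hbb-y) summed to 1571 FPKM in IBU+ACE, 1818 in ASP+ACE, 2358 in ACE+ACE and 3027 in Control, a sum that is mostly Hbb-y. The part of hepatic, yolk sac or red cell RNA in the gonad samples in these results was not tested.

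Markers of the labelled tissue were sparse in the tables, since these hold called transcripts alone. Of 8 Sertoli markers 2 were listed, Sox9 and Cst9, and 0 of 5 Leydig, 7 germ cell, 5 mesonephros and 6 macrophage markers were. Both were listed as higher in IBU+ACE than in Control. Sox9, which drives Sertoli cell fate, was at 5.22 FPKM in ASP+ACE, 5.97 in ACE+ACE, 5.98 in Control and 10.04 in IBU+ACE, and Cst9, a cystatin gene, went from 63.3 FPKM to 114 between Control and IBU+ACE. No listed marker of any of these lists had a value of 0. The IBU+ACE library stood apart in limb and skin markers, of which 6 of 6 were listed as higher than in Control. That list was chosen with earlier results of these data known, so its count is a description. In this pair 48.4% of the 382 transcripts were listed in either direction. Of the 146 named transcripts with both values, called or not, 120 were higher in IBU+ACE and 26 lower. The 5 markers with values in every library summed to 69.8 FPKM in IBU+ACE and to between 4.12 and 6.69 FPKM in the others. The part of limb and skin RNA in the IBU+ACE values of the 10 genes was not tested. Of the 8 of these genes with both values, 6 were higher in IBU+ACE than in Control, 2 were lower and none was called. Their IBU+ACE values come through calls as higher than in ACE+ACE. The difference between Control and ACE+ACE is computed from the values of those 2 libraries. How the authors scaled values across libraries is not stated, so whether the IBU+ACE library entered that scaling is unknown.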

How the data were processed

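Per the submitters' processing notes, the tools were TopHat2 2.1, Bowtie2 2.2.6, Cufflinks 2.2.1 and SAMtools 1.3 on GRCm38, after bcl2fastq 2.17 and FastQC; roles and settings are not given. The authors deposited 6 tables of 726 called rows over 382 transcripts, 240 of them named. Per the file headers, a row gives the value in either library, their log2 fold change, and p and q-values. The deposited values are taken as FPKM from the Cufflinks-like layout, since no header names the unit; libraries were stranded and read as paired 75 nt reads, per the labels' protocols. EtOH in the tables was matched to Control, the remaining library.

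Decimal commas were turned into points with pandas 2.3.3 and numpy 2.4.6 under Python 3.11.15, and plots used matplotlib 3.10.9. Values were combined across tables, where 0 disagreed, giving 33 of the 40 possible values of the 10 genes; 5 genes have 4 values, 3 have 3 and 2 have 2. Nothing was imputed. The reading step was tested on 200 simulated rows. No test was run. The text names the 10 genes, listed members of the fixed lists and the 5 nearest patterns. A few list members, motifs and candidate patterns do not enter these counts and are not reported here. The genes and lists were chosen with earlier results of these data known. Alternatives were a minimum absolute log2 of 1, a minimum of 1 FPKM in the higher library, 1 or 0.1 FPKM added, the mean, division by Alb, and leaving out the 2 loci that cover another gene. The Alb row's own locus was not searched for other genes.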

Additional observations from a re-analysis of the deposited data

How the results depend on the processing

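The counts of listed genes were unchanged or within 1.5 times under every alternative run but 1: between ASP+ACE and IBU+ACE, an absolute log2 of at least 1 left 0 in place of 1. Leaving out Ahsg and C3 left 8, 0, 0, 4, 6 and 1 genes. Medians are given in the order Control to ACE+ACE, to ASP+ACE and to IBU+ACE, then ACE+ACE to ASP+ACE and to IBU+ACE, and ASP+ACE to IBU+ACE. They were -1.80, -0.43, 0.33, 1.36, 2.099 and 0.72. With 1 FPKM added they were -1.06, -0.26, 0.25, 0.999, 1.31 and 0.60, and with 0.1 FPKM added -1.71, -0.40, 0.32, 1.29, 2.01 and 0.71. Divided by Alb they were -0.094, -0.25, -0.23, -0.17, -0.16 and -0.014, so the last 4 changed sign, as did Ahsg (0.39) and Vtn (0.10) between Control and ACE+ACE; this follows from Alb moving the same way. Means moved to -0.33, 0.31, 2.04 and 0.75 for Control to ASP+ACE, Control to IBU+ACE, ACE+ACE to IBU+ACE and ASP+ACE to IBU+ACE. Without Ahsg and C3 the medians that moved were -1.84, -0.47 and 2.11, for Control to ACE+ACE, Control to ASP+ACE and ACE+ACE to IBU+ACE. A minimum of 1 FPKM changed no count and no median. Of the 5 nearest patterns, 4 stayed nearest without the IBU+ACE library, an alternative chosen after seeing the data. No paired analysis was possible because each group has 1 library. Read depth is unknown, so the counting error of each level is unknown too.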
